A study of Mus musculus with 4 samples.

Results

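Retinoic acid is made from vitamin A (retinol) in 2 oxidation steps. Retinol is first oxidised to retinaldehyde, a step that the reductase Dhrs3 runs backwards, and retinaldehyde is then oxidised to retinoic acid by the Aldh1a enzymes. Retinoic acid binds the receptors Rara, Rarb and Rarg, which sit on DNA as pairs with the retinoid X receptors, and the Cyp26 enzymes break it down. In the peritoneal cavity, the transcription factor Gata6 marks large resident macrophages, and its expression there is known to depend on retinoic acid. The genes described here were Gata6, the breakdown enzymes Cyp26a1 and Cyp26b1, the synthesis enzyme Aldh1a2, Dhrs3, and the receptors Rara, Rarb, Rarg, Rxra and Rxrb. They are 10 of the 15298 genes in the expression table, and all 10 were in it. They were selected by name with the levels in these same libraries in view, so that their values are given as a description, with no test.

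The RNA came from peritoneal macrophages of 6-week-old female BALB/c mice, sorted as CD11b+ F4/80+ Ly6G- cells. Mice received microcurrent stimulation (MCS, 300 µA at 400 Hz for 15 min through pads on the abdomen and back) under isoflurane at Zeitgeber time (ZT) 2, that is 2 h after lights on, or the same handling without current (control). Cells were taken at ZT2, directly after the stimulation, or at ZT14, 12 h later, which gave 4 conditions with 1 library each. How many mice a library holds was not given in the sources used here. With 1 library per condition no difference between conditions has a replicate check, and no p-value is given. Levels are CPM, reads scaled to a library size adjusted by the TMM factors of edgeR (trimmed mean of M values). Each difference is the log2 ratio of 2 libraries after adding 0.1 CPM. The 95% intervals come from the numbers of reads (Poisson intervals for a level, exact conditional binomial intervals for a ratio). They cover counting error only, so that an interval off 0 says that 2 libraries differed, not that 2 conditions did. A gene was called past the threshold where its log2 ratio was above 1 or below -1 and the log2 of its mean CPM in the 2 libraries was above 0. All 10 genes passed this minimum level in each of the 4 comparisons. The 4 comparisons share libraries with each other (the control library at ZT14, for example, enters 2 of them), so that their values are given side by side and not as separate evidence.

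The markers of the sort were present in each library. Itgam, which encodes CD11b, lay between 4214 and 5162 CPM, Adgre1, which encodes F4/80, between 1086 and 1900 CPM, and Timd4, a marker of long-lived resident macrophages, between 412 and 442 CPM. Ly6g was not analysed here. RNA of other cells was also present, with 5 B cell markers summing to between 928 and 1338 CPM and 7 mast cell markers to between 959 and 2254 CPM. In such bulk samples, fewer cells of a type and less RNA per cell cannot be told apart.

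The promoter sequences of the 3 Cyp26 genes are shown because these genes had the steepest differences of the pathway between ZT2 and ZT14, and the site in Rarb because it holds the same kind of repeat. Retinoic acid receptors are known to bind pairs of a 6-base half-site. Promoters from RefSeq (build GRCm38.p6, 250 bases before to 50 after a start of a gene) were used for 9 of the 10 genes, in 17 windows. The promoter of Gata6 was not analysed here. The windows were searched on both strands for the half-site AGGTCA and its variants (G allowed as the first base, T as the third, or both) repeated in 1 direction with 1, 2 or 5 bases between (with 5 bases, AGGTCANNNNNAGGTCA and its variants). The repeat with 5 bases between was found in 2 of the 9 genes, Cyp26a1 and Rarb, in 1 window each, against 31 of all 27025 genes with a promoter, or 0.115% (32 of 32851 promoters, or 0.0974%). The repeats with 1 base and with 2 bases between were in none of the 9 genes, against 0.263% and 0.311% of all genes. In Cyp26a1 the repeat lay 32 to 16 bases before the RefSeq start (chr19:37697776-37697792), and in Rarb 53 to 37 bases before another RefSeq start (chr14:16575513-16575529), which lies within the gene, 243.7 kb downstream of its outermost annotated start. Both the genes and the repeat were chosen for known ties to retinoic acid, so that nothing is read from the difference between these shares. A match is a description of the letters and not a measured binding site. Below, capitals mark the repeat, and each line runs 5′ to 3′ along the strand of its gene, the Cyp26 lines ending just before the earliest annotated start of the gene and the Rarb line holding only the repeat and the bases around it.
Cyp26a1 (chr19:37697648-37697797, plus strand): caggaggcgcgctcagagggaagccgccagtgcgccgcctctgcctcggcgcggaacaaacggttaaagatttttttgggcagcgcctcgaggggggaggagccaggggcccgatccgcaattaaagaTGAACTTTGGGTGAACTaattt
Cyp26b1 (chr6:84593909-84594058, minus strand): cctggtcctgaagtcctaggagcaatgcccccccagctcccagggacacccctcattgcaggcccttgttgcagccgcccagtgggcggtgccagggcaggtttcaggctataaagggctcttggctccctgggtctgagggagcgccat
Cyp26c1 (chr19:37685431-37685580, plus strand): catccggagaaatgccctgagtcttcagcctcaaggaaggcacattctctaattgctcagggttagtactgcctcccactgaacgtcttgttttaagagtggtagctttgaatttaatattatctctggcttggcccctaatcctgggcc
Rarb (chr14:16575506-16575535, minus strand): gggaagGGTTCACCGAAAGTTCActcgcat

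The breakdown enzymes had the widest range of the 10 genes, and both were high at ZT14 and low at ZT2 in control and in MCS mice. Cyp26a1 (chromosome 19, 37697798 to 37701536 in the GENCODE annotation of GRCm38), the enzyme best known as a target of retinoic acid itself, stood at 3.46 CPM in control mice at ZT2, 3.83 CPM in MCS mice at ZT2, 20.9 CPM in control mice at ZT14 and 35.9 CPM in MCS mice at ZT14. These levels rest on 30, 33, 190 and 351 reads. The 2 libraries from ZT2 differed by less than the counting error, both libraries from ZT14 lay above them, and MCS at ZT14 lay above control at ZT14. The log2 ratio of ZT14 over ZT2 was 2.56 (95% interval 2.03 to 3.20) in control and 3.20 (2.71 to 3.79) in MCS. It was among the highest of the whole table, 11 from the top of 12465 genes in control and 13 from the top of 12534 genes in MCS. Over the 4 libraries its level spanned 10.4-fold. Cyp26b1 (chromosome 6, 84571414 to 84593908), a second enzyme of the same family, had 1.73 (control) and 1.51 (MCS) CPM at ZT2, and 14.3 (control) and 13.4 (MCS) CPM at ZT14. Here the libraries of the same time did not differ beyond counting error, and the times did not overlap. Its log2 ratio of ZT14 over ZT2 was 2.97 (2.27 to 3.92) in control, where it ranked 5 from the top, and 3.07 (2.33 to 4.10) in MCS, where it ranked 14 from the top.

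**Figure D1:**
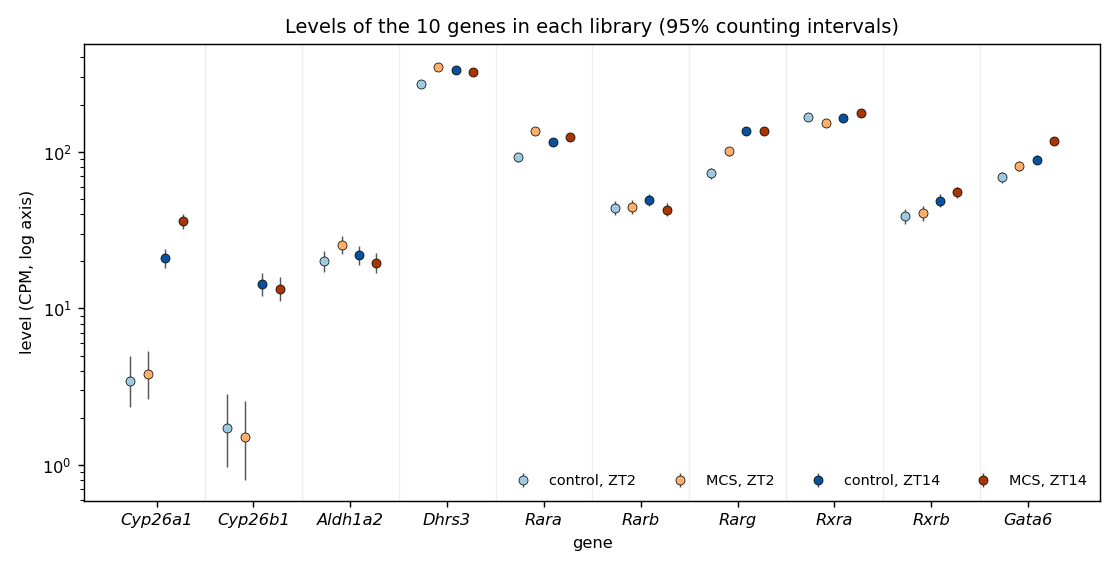
Level of each gene in each library, in CPM on a log axis, with 1 point per library and bars for the 95% Poisson interval of its reads. Cyp26a1 and Cyp26b1 lay between 1.51 and 3.83 CPM at ZT2 and between 13.4 and 35.9 CPM at ZT14, while no other gene varied by more than 1.87-fold over the libraries.

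Cyp26c1, the remaining gene of this enzyme family and not one of the 10, ends 4.4 kb before Cyp26a1 starts on chromosome 19. It was scarce, with 0.577 (control) and 0.116 (MCS) CPM at ZT2 and 2.64 (control) and 2.76 (MCS) CPM at ZT14, the lowest of these being 1 read. Its log2 ratio of ZT14 over ZT2 was 2.01 (0.77 to 3.94) in control and 3.73 (1.97 to 9.93) in MCS, so that all 3 Cyp26 genes were past the threshold in the same direction in both arms. No stretch of 100 bases was shared between the transcripts of Cyp26a1, Cyp26b1 or Cyp26c1 and those of another gene. The 3 enzymes together summed to 5.77 (control) and 5.45 (MCS) CPM at ZT2, and to 37.8 (control) and 52.0 (MCS) CPM at ZT14. None of the 10 lists of cell type markers had a higher sum at ZT14 than at ZT2 in both arms. The B cell and neutrophil sums were higher at ZT14 in control only, and those of large peritoneal macrophages and red blood cells in MCS only. The part of cell types in the values of the Cyp26 genes was not tested.

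Counted over the 10 genes, 2 were past the threshold between the times in control and the same 2 in MCS, namely Cyp26a1 and Cyp26b1, all of them higher at ZT14. Of all genes with the minimum level, 1.19% were past the threshold in this direction in control and 1.87% in MCS (3.61% and 5.83% in both directions). As the 10 genes were chosen with these values known, nothing is read from this difference. Between MCS and control, 0 of the 10 were past the threshold at ZT14, against 3.4% of all genes, and 0 at ZT2, against 2.21%. By the weaker mark of a counting interval off 0, MCS and control differed for 4 of the 10 at ZT14 (3 higher and 1 lower with MCS), where 37.6% of all genes did, and 6 at ZT2 (5 higher and 1 lower), where 22.5% of all genes did. Between the times it was 7 of 10 in control, all higher at ZT14, against 29.5% of all genes, and 9 of 10 in MCS (6 higher and 3 lower at ZT14), against 44% of all genes. The 10 genes had a median log2 ratio of 0.04 for MCS at ZT14, 0.18 for MCS at ZT2, 0.33 for time in control and 0.32 for time in MCS, while the median of all genes lay within 0.01 of 0 in each comparison.

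**Figure D2:**
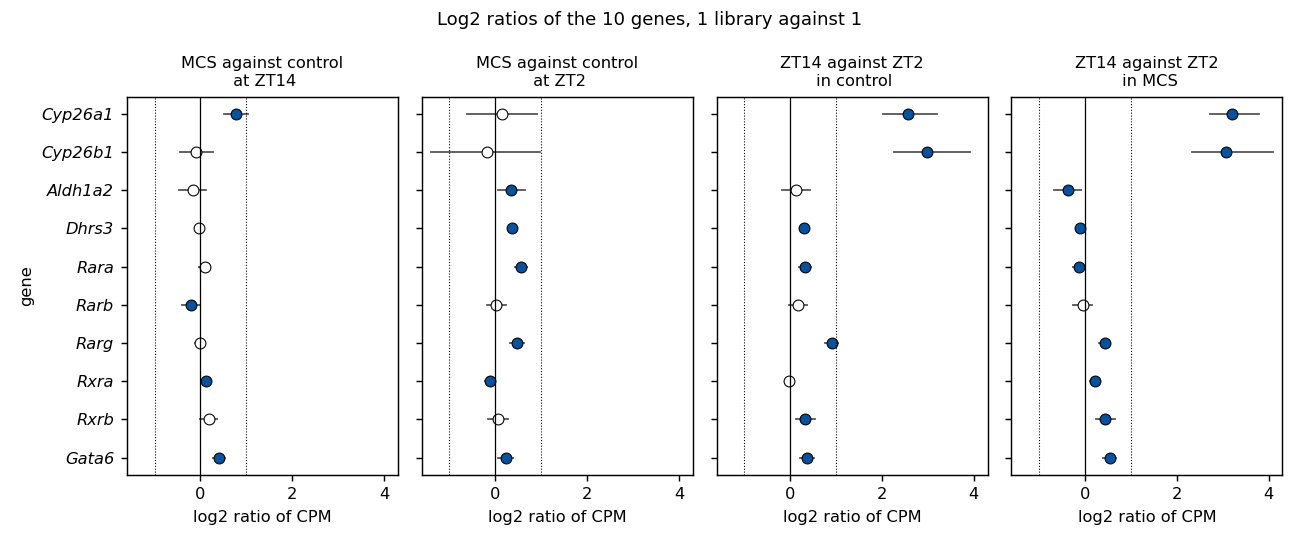
Log2 ratio of CPM of each gene in the 4 comparisons, with bars for the 95% counting interval, filled points where it lies off 0 and dotted lines at 1 and -1. The 2 panels on the left hold MCS against control, where each point lies between the dotted lines, and the 2 on the right ZT14 against ZT2, where Cyp26a1 and Cyp26b1 lie between 2.56 and 3.20.

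**Figure D3:**
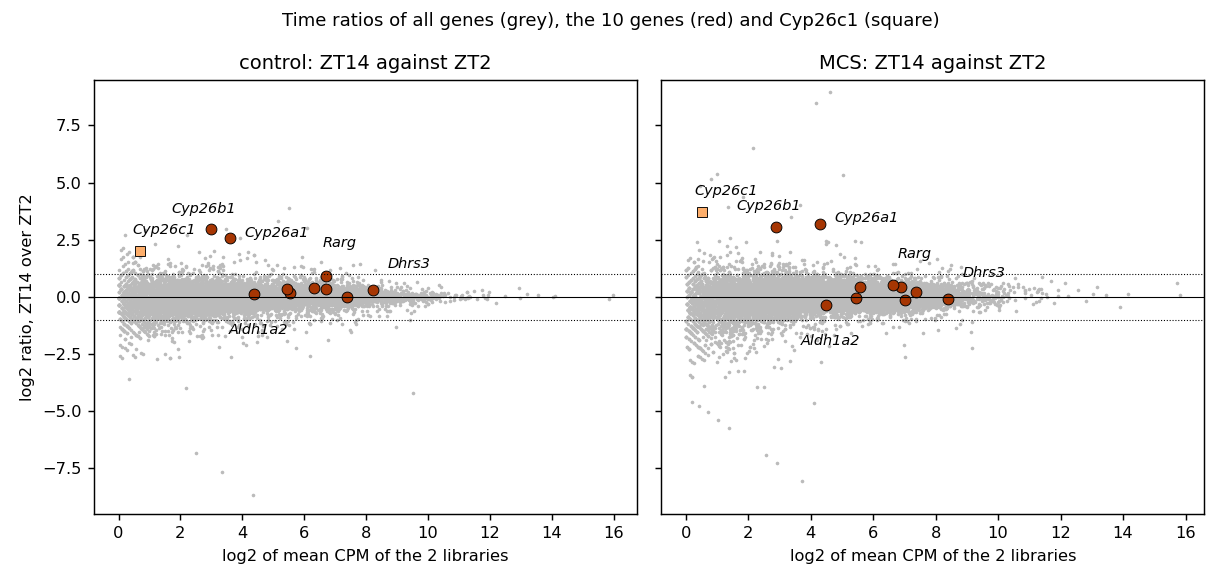
Log2 ratio of ZT14 over ZT2 against the log2 of the mean CPM of the 2 libraries, for all genes with the minimum level (grey), the 10 genes (red circles) and Cyp26c1 (square), in control and in MCS. The Cyp26 genes stand at the upper edge of the grey points in both panels, and the other 8 lie between -0.38 and 0.90.

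Cyp26a1 was also the gene of the 10 with the largest ratio of MCS over control at ZT14, 0.78 on the log2 scale (0.52 to 1.04), while its ratio at ZT2 was 0.14 (-0.61 to 0.91). The difference between these ratios was 0.64 (-0.12 to 1.40), an interval that spans 0, so that a difference between the times in the ratio of MCS to control was not detectable at this depth. For Cyp26b1 the ratio of MCS over control was -0.09 (-0.45 to 0.27) at ZT14 and -0.19 (-1.39 to 0.97) at ZT2. The wide intervals at ZT2 come from 13 and 15 reads.

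The pattern of Cyp26a1 over the libraries was compared with that of the 8631 genes with a mean of at least 10 CPM, by the root mean square difference of the 4 log2 levels after centring each gene on its own mean. Cyp26b1 and Cyp26c1, with means of 7.73 and 1.52 CPM, fell below this level and were not compared. Among the genes compared, the nearest was Tef, a transcription factor under the control of the circadian clock, at 0.48. The clock repressors Per3, at 0.53, and Per2, at 0.63, came next. These distances are large, since none of the genes compared lay within 0.1. In each of Tef, Per3 and Per2 both libraries from ZT14 lay above both from ZT2. Tef had 15.01 (control) and 15.7 (MCS) CPM at ZT2 against 121 (control) and 82.7 (MCS) CPM at ZT14. Per3 had 6.35 and 7.42 CPM at ZT2 against 64.4 (control) and 39.3 (MCS) CPM at ZT14. Per2 had 5.66 and 9.74 CPM at ZT2 against 84.6 (control) and 46.7 (MCS) CPM at ZT14. In MCS against control at ZT14 these clock genes lay on the other side of 0 from Cyp26a1, with log2 ratios of -0.54 for Tef, -0.71 for Per3 and -0.85 for Per2.

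Aldh1a2 (chromosome 9, 71215789 to 71296243) was the synthesis enzyme with the highest level in these cells. It had 20.0 (control) and 25.4 (MCS) CPM at ZT2, and 21.9 (control) and 19.5 (MCS) CPM at ZT14. No neighbours in the order of these levels differed beyond counting error, while MCS at ZT2 lay beyond it above control at ZT2 and MCS at ZT14. With MCS its log2 ratio to control was 0.35 (0.05 to 0.64) at ZT2 and -0.16 (-0.46 to 0.13) at ZT14, a difference of -0.51 (-0.91 to -0.10), and its ratio of ZT14 over ZT2 was -0.38 (-0.67 to -0.09) in MCS and 0.13 (-0.17 to 0.43) in control. Among the other synthesis genes listed, Aldh1a1 lay between 0.580 and 0.989 CPM, and Aldh1a3, Aldh1a7 and Aldh8a1 stayed under 0.464 CPM or at it in each library. Mesothelial cells, which line the peritoneum, are known to express Aldh1a2. The 9 mesothelial markers in the table summed to 15.8 (control) and 23.4 (MCS) CPM at ZT2, and to 6.70 (control) and 8.79 (MCS) CPM at ZT14, and the defining marker Wt1 lay between 0.511 and 0.693 CPM. The 8 fibroblast markers summed to 19.3, 23.0, 5.27 and 10.6 CPM in the same order. Both sums were highest in the library in which Aldh1a2 was highest, and both were lower at ZT14 than at ZT2 in each arm. Their part in the Aldh1a2 values was not tested.

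Dhrs3 (chromosome 4, 144892827 to 144928209), which turns retinaldehyde back into retinol, was the most abundant of the 10. It had 271 (control) and 347 (MCS) CPM at ZT2, and 332 (control) and 323 (MCS) CPM at ZT14. The control library at ZT2 stood below the other 3, and those did not differ between neighbours beyond counting error. With MCS the log2 ratio was 0.35 (0.28 to 0.43) at ZT2 and -0.04 (-0.11 to 0.03) at ZT14. Over time it was 0.29 (0.21 to 0.37) in control and -0.10 (-0.17 to -0.03) in MCS.

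Of the 20 genes listed for the interconversion of retinol and retinaldehyde, Dhrs3 among them, 13 had the minimum level for MCS against control at ZT14 and 0 were past the threshold, against 3.4% of all genes. Of the 14 with the minimum level at ZT2, 1 was, against 2.21% of all genes, namely Rdh5, which had 0.346 (control) and 1.74 (MCS) CPM. Between the times 0 of 13 were past it in control, against 3.61% of all genes. In MCS, 2 of 14 were, against 5.83%, both lower at ZT14, namely Dhrs9 (8.58 to 4.19 CPM, log2 ratio -1.02) and Rdh5 (1.74 to 0.716 CPM, log2 ratio -1.17, its interval of -2.82 to 0.10 spanning 0). Dhrs7, an abundant reductase of the same superfamily, had 48.0 (control) and 41.1 (MCS) CPM at ZT2, and 46.9 (control) and 60.0 (MCS) CPM at ZT14. This list had median log2 ratios between -0.09 and 0.04 in the 4 comparisons.

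The 5 receptors among the 10 genes were all present in each library, with Rxra the most abundant in CPM and Rxrb and Rarb the least. Rxrg, the remaining retinoid X receptor, was at 0.462 CPM or below in each library and at 0 in 2 of them. None of the 5 receptors was past the threshold in any comparison. Rarg (chromosome 15, 102234938 to 102257517), a receptor for retinoic acid, varied most. It had 72.9 (control) and 100.7 (MCS) CPM at ZT2, and 136 CPM in both libraries from ZT14. Its log2 ratio of ZT14 over ZT2 was 0.90 (0.76 to 1.04) in control and 0.43 (0.31 to 0.56) in MCS, and its ratio of MCS over control was 0.47 (0.32 to 0.62) at ZT2 and -0.01 (-0.12 to 0.11) at ZT14. Rara (chromosome 11, 98927818 to 98974942) had 92.3 (control) and 136 (MCS) CPM at ZT2, and 116.0 (control) and 124 (MCS) CPM at ZT14. The control library at ZT2 was the lowest and the MCS library at ZT2 the highest, beyond counting error from their neighbours. Its ratio of MCS over control was 0.56 (0.43 to 0.69) at ZT2, the largest of the 10 genes in that comparison, and 0.10 (-0.02 to 0.22) at ZT14. Rarb (chromosome 14, 16430839 to 16819156), itself a known target of retinoic acid, stayed between 42.7 and 49.2 CPM, and no neighbours among its 4 levels differed beyond counting error. Its ratio of MCS over control at ZT14 was -0.20 (-0.40 to -0.01). The repeat shown above was thus found in the gene of the 10 with the widest range, Cyp26a1, and in the one with the narrowest, Rarb, which spanned 1.15-fold.

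Rxra (chromosome 2, 27676440 to 27762957), the usual partner of the retinoic acid receptors, had 166 (control) and 153 (MCS) CPM at ZT2, and 164 (control) and 178 (MCS) CPM at ZT14. No neighbours in the order of these levels differed beyond counting error. Its log2 ratio of MCS over control was -0.12 (-0.23 to -0.01) at ZT2 and 0.11 (0.01 to 0.21) at ZT14. It was the only one of the 10 with an interval on opposite sides of 0 at the 2 times. Rxrb (chromosome 17, 34031812 to 34038399) had 38.7 (control) and 40.4 (MCS) CPM at ZT2, and 48.7 (control) and 55.0 (MCS) CPM at ZT14. Both libraries from ZT14 lay above both from ZT2, with ratios over time of 0.33 (0.12 to 0.54) in control and 0.45 (0.25 to 0.65) in MCS, while the ratios of MCS over control had intervals that span 0 at ZT2 (0.06) and at ZT14 (0.18).

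Between ZT2 and ZT14, the ratio of MCS to control was lower at the later time for 4 of the 10 genes with an interval off 0, against 18.9% of all genes with the minimum level at both times, namely Aldh1a2 (-0.51), Rarg (-0.47), Rara (-0.47) and Dhrs3 (-0.39, -0.50 to -0.29). For Rara, Rarg and Dhrs3 the interval of MCS over control lay above 0 at ZT2 and spanned 0 at ZT14. For Rxra the ratio was higher at ZT14, by 0.23 (0.09 to 0.38), as it was for 18.3% of all genes. With 5 of 10 against 37.2% in either direction, nothing is read from this count. For Gata6 (0.17), Cyp26a1 (0.64), Cyp26b1 (0.10), Rarb (-0.23) and Rxrb (0.12) the interval of this difference spans 0. Of the marker lists of other cells, those of mast cells, neutrophils, T cells, eosinophils, mesothelial cells, fibroblasts and small peritoneal macrophages had their highest sums in the MCS library at ZT2, and those of B cells and red blood cells did not. The mast cell markers summed to 1828 (control) and 2254 (MCS) CPM at ZT2, and to 1189 (control) and 959 (MCS) CPM at ZT14, with 5 of 7 above control by their intervals at ZT2. The 7 neutrophil markers in the table summed to 30.7 (control) and 102 (MCS) CPM at ZT2, and to 32.6 (control) and 18.9 (MCS) CPM at ZT14, Ngp and Camp being at 0 in the last of these. The 11 markers of small peritoneal macrophages and dendritic cells summed to 4309 (control) and 4977 (MCS) CPM at ZT2 and to 3985 and 3894 CPM at ZT14, with 10 of 11 above control at ZT2. Among markers with the minimum level, 6 of 6 of neutrophils, 2 of 7 of mesothelial cells and 1 of 5 of fibroblasts also were. So were 1 of 5 of T cells and 1 of 3 of eosinophils. Of all genes, 22.5% had an interval off 0 at ZT2 in either direction. The part of these cell types in the values of Rara, Rarg, Dhrs3 and Aldh1a2 was not tested.

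**Figure D4:**
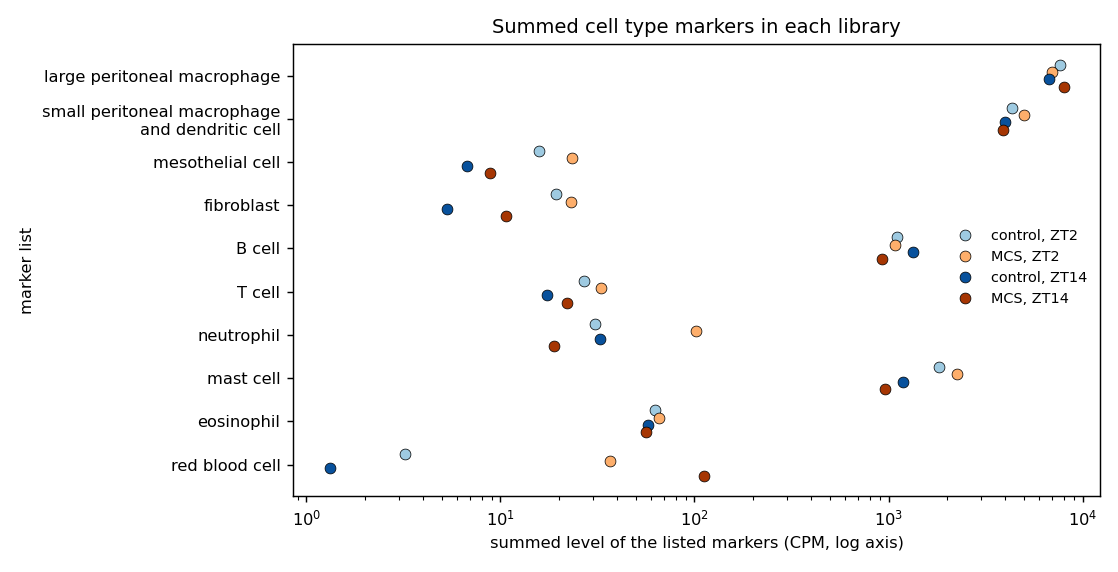
Summed CPM of the markers of each cell type in each library, on a log axis, with 1 point per library. The neutrophil sum was highest in the MCS library at ZT2, at 102 CPM, and the mast cell, mesothelial and fibroblast sums were lower at ZT14 than at ZT2 in both arms.

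Gata6 was lowest in control mice at ZT2, at 69.1 CPM, and highest in MCS mice at ZT14, at 117 CPM. Between them stood MCS at ZT2, at 80.9 CPM, and control at ZT14, at 89.0 CPM, which did not differ from each other beyond counting error, while each end of the order did differ from its neighbour. Its log2 ratio of MCS over control was 0.40 (0.27 to 0.53) at ZT14 and 0.23 (0.07 to 0.39) at ZT2, and that of ZT14 over ZT2 was 0.37 (0.21 to 0.52) in control and 0.54 (0.40 to 0.67) in MCS. It was thus the one gene of the 10 whose interval lay above 0 in all 4 comparisons, with none past the threshold. The sum of the 6 red blood cell markers in the table was also highest in the MCS library at ZT14. It was 3.23 (control) and 36.7 (MCS) CPM at ZT2, and 1.32 (control) and 112 (MCS) CPM at ZT14. Hba-a1 by itself was highest in the MCS library at ZT2, at 22.0 CPM against 19.6 CPM in MCS at ZT14. The sum of the B cell markers was lowest in the MCS library at ZT14. The part of these markers' cells in the values of Gata6 was not tested. At ZT14, 24.4% of all genes had a ratio of MCS to control at least as far from 0 as that of Gata6. By the measure of pattern used above, 69 genes lay within 0.1 of Gata6, the nearest being Rcc1, an exchange factor for the GTPase Ran (0.03), Mrpl36, a protein of the mitochondrial ribosome (0.03), and Slc25a15, the mitochondrial ornithine carrier (0.05). Gata6 and Rarb have exons that overlap genes on the opposite strand (1010001N08Rik for Gata6, Top2b and Gm48162 for Rarb). The library kit keeps strand, but no source used here gives whether the counting used it, so that reads of such pairs cannot be told apart here. The other 8 genes have no such overlap.

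The genes listed as depending on Gata6 in large peritoneal macrophages had ratios on both sides of 0 in each comparison. All 13 had the minimum level. With MCS at ZT14, 9 had intervals above control and 3 below, where 37.6% of all genes had an interval off 0, while at ZT2 1 was above and 11 below, where 22.5% of all genes had one, Gata6 itself being above at both times. Over time, 3 were higher and 9 lower at ZT14 in control (29.5% of all genes off 0), and 9 higher and 3 lower in MCS (44%). Thbs1, which encodes the matrix protein thrombospondin 1, had 1376 (control) and 938 (MCS) CPM at ZT2, against 73.8 (control) and 200.005 (MCS) CPM at ZT14, so that its level at ZT14 was far lower in both arms (log2 ratios -4.22 and -2.23) and higher with MCS (1.44). Cxcl13, a chemokine that attracts B cells, lay the other way, with 193 (control) and 222 (MCS) CPM at ZT2 against 437 (control) and 106 (MCS) CPM at ZT14, a ratio of -2.05 with MCS at ZT14. Alox15, a lipoxygenase of resident macrophages, had 4015 (control) and 3607 (MCS) CPM at ZT2 and 3712 (control) and 5532 (MCS) CPM at ZT14. Garnl3, at 94.01 and 84.0 CPM at ZT2, had 83.0 (control) and 157 (MCS) CPM at ZT14, a ratio of 0.92. Of the 7 markers of large peritoneal macrophages, 5 lay above control with MCS at ZT14 (Gata6, Adgre1, Itgam, Icam2 and Cebpb) and 5 below it at ZT2, and their sum was 7663 (control) and 6920 (MCS) CPM at ZT2 and 6708 and 8002 CPM at ZT14. Over the whole table, 10.2% of genes had intervals on opposite sides of 0 with MCS at ZT2 and at ZT14, and 9 of these 13 did.

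**Figure D5:**
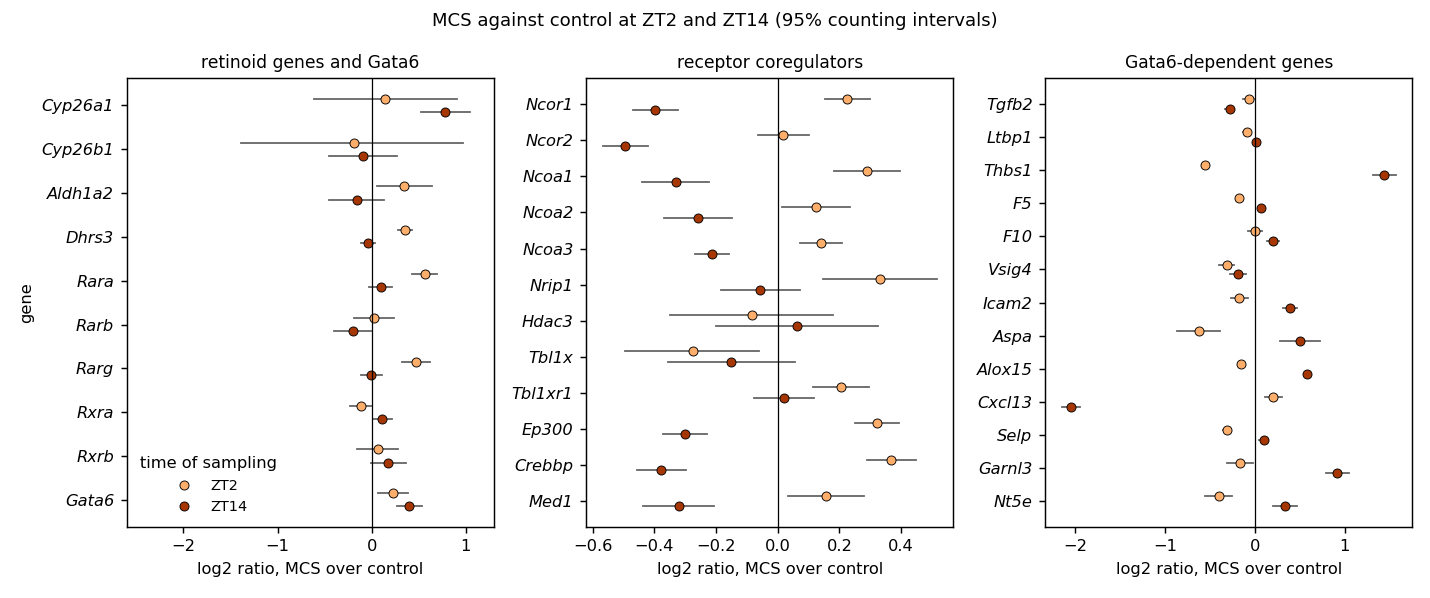
Log2 ratio of MCS over control at ZT2 (light) and ZT14 (dark), with bars for the 95% counting interval, for the 10 genes, the 12 receptor coregulators and the 13 Gata6-dependent genes (each panel has its own scale). Gata6 lies right of 0 at both times, 7 coregulators lie right of 0 at ZT2 and left of it at ZT14, and Thbs1 and Cxcl13 hold the extremes of the last panel.

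The coregulators are proteins through which nuclear receptors, the retinoic acid receptors among them, switch transcription on or off. All 12 had the minimum level, between 25.2 and 600.1 CPM. With MCS the levels of 7 of the 12 lay above control at ZT2 and below it at ZT14, with both intervals off 0. Opposite signs in either direction were found for 10.2% of all genes. Their median log2 ratio was 0.18 at ZT2 and -0.28 at ZT14. The corepressor Ncor1 had 326 (control) and 381 (MCS) CPM at ZT2, and 379 (control) and 288 (MCS) CPM at ZT14. The coactivator Crebbp had 256, 330, 312 and 240.2 CPM in the same order, and its relative Ep300 had 321, 401, 377 and 306 CPM. The corepressor Nrip1, known to be induced by retinoic acid, was the only one past the threshold, between the times in control (50.8 to 109 CPM, log2 ratio 1.10, 0.94 to 1.27), and had 63.9 and 105 CPM in MCS. These genes have long transcripts, of 7.33 kb (Ncoa1) to 10.8 kb (Crebbp) for the 7. Over all genes with a known length, the median log2 ratio of MCS over control at ZT14 was -0.13 for those whose longest coding transcript had 6 kb or more and 0.15 for those under 2 kb, and at ZT2 it was 0.03 and -0.04, the medians of long genes having the same sign as those of the coregulators at both times. The part of length in the values of the coregulators was not tested. The 10 genes described here have transcripts of 1.79 kb (Cyp26a1) to 4.91 kb (Rxra), between these limits except for Cyp26a1, for which the median of short genes at ZT14 has the sign of its own ratio of MCS over control.

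Other receptors, listed as partners of the retinoid X receptors or as close relatives of a partner, were mostly scarce. The most abundant of them were the liver X receptor Nr1h2, between 66.9 and 70.4 CPM, and Ppard, between 27.9 and 37.9 CPM. Of 14 listed, 11 had the minimum level between the times in control, and 3 were past the threshold there (3.61% of all genes). Nr4a1, an immediate early nuclear receptor, went from 7.39 CPM at ZT2 to 23.0 CPM at ZT14 in control (log2 ratio 1.62, 1.22 to 2.06) and from 9.74 to 12.9 CPM in MCS (0.40, -0.01 to 0.82). Nr1h3, a second liver X receptor, had 2.43 and 5.27 CPM in control (1.09, 0.35 to 1.93) and 3.25 and 4.601 CPM in MCS. The vitamin D receptor Vdr was lower at ZT14, at 2.19 and 0.989 CPM in control (-1.08, an interval of -2.48 to 0.06) and 4.99 and 0.818 CPM in MCS (-2.47, -3.91 to -1.50). In MCS, 3 of 10 were past it between the times (5.83% of all genes), Vdr, the immediate early receptor Nr4a3 (2.44 to 0.818 CPM, -1.47), and Ppara, a receptor for fatty acids, which was higher at ZT14 (0.464 to 1.64 CPM, 1.62). With MCS at ZT14, 1 of 9 was past the threshold (3.4% of all genes), Nr4a2, at 3.52 CPM in control and 1.43 CPM with MCS (-1.24). With MCS at ZT2 it was 3 of 12 (2.21% of all genes), with Vdr higher (1.15, 0.37 to 2.05) and Ppara (-1.61, -3.86 to -0.13) and Pparg (-1.20, an interval of -2.97 to 0.13) lower. All of the receptors past the threshold in a comparison, but for Nr4a1 and Nr1h3, stayed under 5 CPM.

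Genes listed as induced by retinoic acid had ratios on both sides of 0 between the times. Nrip1, past the threshold between the times in control as given above, was listed with the coregulators and not here. Of the 15 listed, 11 were in the table and 9 had the minimum level between the times in control. Of these, 3 were past the threshold (3.61% of all genes), Cyp26a1, Cyp26b1 and Hic1. In MCS, 2 of 8 were (5.83% of all genes), Cyp26a1 and Cyp26b1. With MCS at ZT14 1 of 8 was (3.4% of all genes), Hic1, which was lower (-1.10, -2.42 to -0.02). With MCS at ZT2 it was 0 of 9 (2.21% of all genes). Hic1, a transcriptional repressor, went from 0.808 CPM at ZT2 to 2.31 CPM at ZT14 in control and from 1.51 to 1.02 CPM in MCS. Tgm2, which encodes transglutaminase 2, was lower at ZT14, at 23.7 and 11.97 CPM in control (-0.98, -1.33 to -0.64) and 16.2 and 11.8 CPM in MCS (-0.46, -0.83 to -0.10). Cd38 stayed between 186 and 211 CPM. The list had a median log2 ratio of 0.18 between the times in control and -0.07 in MCS. This list was drawn up with results of these data known and holds 4 of the 10 genes, so its counts are no independent sign of retinoic acid activity in either direction.

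For a comparison of levels between genes, CPM was divided by the length of the longest coding transcript, giving CPM per kb. On this scale the mean over the 4 libraries was highest for Dhrs3, at 136 CPM per kb, whose lowest library (116) lay above the highest of each other gene. Rarg (37.7), Rara (34.6), Rxra (33.7) and Gata6 (27.5) followed, with ranges over the libraries that overlap. Then came Rxrb (17.4) and Rarb (14.5), which overlap each other, Aldh1a2 (9.58), and Cyp26a1 (8.94), whose range of 1.93 to 20.0 CPM per kb overlaps several neighbours. Cyp26b1 (1.72) was the lowest of the 10. Per kb, Cyp26a1 stood above Aldh1a2 in both libraries from ZT14 and below it in both from ZT2.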

How the data were processed

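RNA from sorted mouse peritoneal macrophages was ribosome-depleted, made into strand-specific libraries and sequenced as paired reads of 150 bases. According to the methods and the submitters' processing notes, the authors trimmed reads with Trimmomatic 0.38, aligned and counted them with RSEM 1.3.0 and Bowtie2 (build mm10), and normalised with edgeR. The annotation and any filter on genes are not given in the sources used here. The deposited values are CPM, 1 column per library and 15298 genes. In each library 100% of the values were whole multiples, within 0.05 read, of what 1 read is worth (0.102 to 0.116 CPM), which gave back 8365590 to 9953243 reads per library. Each library is thus deep enough for 3 reads to correspond to 0.307 to 0.348 CPM.

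From these, log2 ratios of CPM + 0.1 were taken between libraries, with exact 95% intervals from the reads (Clopper-Pearson for ratios, Poisson for levels) that cover counting error only. The threshold was a log2 ratio past 1 or -1, with a log2 mean CPM above 0. Its cutoffs are those of the wider gene selection in the study's methods. The study applied them to the log fold changes and log CPM of edgeR, so the counts here need not equal its own. Its narrower selection, with a higher fold cutoff, was not used here. The 10 genes and all gene lists were chosen with earlier results of these data known. Named genes were the 10, genes of the lists (first those with a mean of at least 1 CPM, and the highest and lowest ratios), and the 3 genes nearest in pattern to Gata6 and to Cyp26a1. Annotation came from GENCODE M21 (GRCm38) and promoters from RefSeq (GRCm38.p6). The quasi-likelihood test of edgeR 4.0.16 in R 4.3.3 was run on the recovered reads as an alternative, with additive terms for time and MCS. Scripts used Python 3.11.15, pandas 2.3.3 and scipy 1.17.1 and were tested on simulated data. Alternatives were the pseudocount, the minimum level and the scaling between libraries. The values of 1 listed gene are not reported here.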

Additional observations from a re-analysis of the deposited data

Results flagged for a closer look

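The retinoid pathway, the coregulators and the Gata6-dependent list hold 85 genes in the table. Of these, 18 had a ratio of MCS over control on opposite sides of 0 at ZT2 and ZT14, each with a counting interval off 0. The 85 include genes below the minimum level, which could not be among the 18, so that this count has no like share beside it. Of all 12236 genes with the minimum level at both times, 1248 did so, or 10.2%. With 1 library per condition the difference between the times was not tested against replicates.

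The values given here are the log2 ratio at ZT14 minus that at ZT2. Of the retinoid genes these were Rxra, at 0.23, and Dhrs7, at 0.58. The coregulators all lay below 0, with Ncor1 at -0.62, Ncoa1 at -0.62, Ncoa2 at -0.38, Ncoa3 at -0.35, Ep300 at -0.62, Crebbp at -0.75 and Med1 at -0.48. Of the Gata6-dependent genes, those above 0 were Thbs1 at 1.99, Aspa, which encodes aspartoacylase, at 1.12, Garnl3 at 1.08, Nt5e, which encodes the ectoenzyme CD73, at 0.74, Alox15 at 0.73, the adhesion molecule Icam2 at 0.56, P-selectin (Selp) at 0.41 and coagulation factor V (F5) at 0.24. The chemokine Cxcl13, at -2.25, was the only one of these below 0.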

How the results depend on the processing

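Each of the 160 values of the 10 genes' log2 ratios under another pseudocount (1 or 0.01 CPM) or another scaling (median ratio of 0, TMM factors) stayed within its own counting interval and kept its sign. Scaling to a median ratio of 0 moved none by more than 0.01. The deposited CPM already carry the TMM scaling, so that this alternative returned the same values and could not show a change. The number of the 10 genes past the threshold stayed at 0 or 2 under each alternative, except between the times in MCS, where a minimum log2 mean CPM of 3 left 1, as Cyp26b1 was no longer counted. The number of all genes past it depended on how low levels were treated. In the order MCS at ZT14, MCS at ZT2, time in control and time in MCS, it was 421, 279, 450 and 731 as reported, 174, 101, 229 and 409 with a pseudocount of 1 CPM, 1615, 1434, 1567 and 2053 with no minimum level, and 81, 26, 139 and 197 with a minimum of 3. On the recovered reads (100% of values whole), the quasi-likelihood test of edgeR with Benjamini-Hochberg adjustment called 24 of 12404 genes for MCS (304 at an unadjusted p under 0.05) and 295 for time (1287). With at least 10 reads in place of 40, a choice made after seeing the data, it called 43 and 395. That fit has 1 residual degree of freedom and takes any interaction of MCS with time as error.

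No paired analysis was possible because each condition has 1 library and the labels carry no replicate number. For the same reason no library was left out. Depth limits Cyp26b1 and Cyp26c1 at ZT2 most, where they had 15 reads or fewer.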

Other observations

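Genes that take up, bind or store retinol were scarce in these libraries. Of 11 listed, 6 were in the table and 3 had a mean of at least 1 CPM. Fabp5, a fatty acid binding protein that also carries retinoic acid, had 1.963 (control) and 1.04 (MCS) CPM at ZT2, and 1.32 (control) and 4.29 (MCS) CPM at ZT14. It was past the threshold at ZT14 with MCS, with a log2 ratio of 1.63 (0.75 to 2.77), and between the times in MCS, with a log2 ratio of ZT14 over ZT2 of 1.94 (0.98 to 3.26).

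Enzymes that release retinol from its esters were more abundant, and 3 of 5 had the minimum level. Pnpla2, the main lipase of lipid droplets, was lower at ZT14 in both arms, at 85.8 (control) and 97.2 (MCS) CPM at ZT2 against 56.8 and 57.7 CPM at ZT14. Lipoprotein lipase (Lpl) had 125 and 112 CPM at ZT2 against 97.4 and 97.9 CPM at ZT14. None of the 3 was past the threshold in any comparison.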
